A study of Mus musculus with 4 samples.

Results

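A set of 30 genes of the cell cycle and of DNA replication, of which 29 could be measured, was followed in the liver of Wrn mutant mice given vitamin C. The 30 members were chosen by name as genes of proliferating cells, with earlier results of these data known. Probes were assigned to them through the RefSeq accession that the scanner files give for each probe. The 29 genes were covered by 41 of the 41174 probes, and each gene was represented by its brightest probe in a fit over 31073 genes or accessions. No probe was matched to Ccnd1, which encodes cyclin D1 and was the only member of the entry into the cycle, so it was not analysed here.

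The animals were male C57Bl/6 mice with a mutant Wrn protein, aged 3 months. Wrn is a RecQ helicase of DNA repair and replication that is lost in Werner syndrome. Treated mice drank water with 0.4% vitamin C from weaning on, and untreated mice of the same genotype were the controls. Every animal in the comparison therefore carried the mutation, which the labels do not describe further, and mice with a normal Wrn gene are not part of it. RNA from 4 treated livers (Cy3) was hybridised against RNA from 4 untreated livers (Cy5) in 4 pairs on 4 Agilent arrays. The labels call the pairs biological replicates. Values below are log2 ratios of the treated over the untreated liver, so that a value below 0 means less signal in the treated liver of the pair. The direction rests on the dyes named in the labels. None of the arrays was dye-swapped, so a dye effect of a probe and an effect of the treatment cannot be told apart.

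A cell that divides passes through a phase of DNA synthesis (S phase) and then through mitosis, and most hepatocytes of an adult liver do neither. The entry into S phase is driven by cyclin E and by the E2F factors, which switch on the genes of the replicative helicase (Mcm2 to Mcm7) and of nucleotide synthesis. The entry into mitosis is driven by Cdk1 with the cyclins A and B, and its exit by the ubiquitin ligase that Cdc20 activates. Promoters of mitotic genes often carry a cell cycle homology region (CHR) and CCAAT boxes, through which they are silenced in resting cells and induced late in the cycle. The measured members were divided by these roles into 15 genes of S phase and 14 of mitosis.

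The stretches of 250 bases before the start of 6 members are shown first because they belong to the genes that the results turn on. Ccnb1, Cdc20 and Bub1 had the lowest mean ratios of all members, Mki67 and Rrm1 the highest, and Mcm6 had the most E2F matches. The sequences are from RefSeq, build GRCm38.p6, and are written 5′ to 3′ along the gene, so that the last base is the one before the start. Capitals mark matches on either strand to the E2F motif (TTTCCCGC, TTTCGCGC, TTTGCCGC or TTTGGCGC), to the CHR (TTTGAA) or to CCAAT. In Mcm6, 2 E2F matches on opposite strands overlap.

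Ccnb1 (chr13:100786487-100786736, minus strand): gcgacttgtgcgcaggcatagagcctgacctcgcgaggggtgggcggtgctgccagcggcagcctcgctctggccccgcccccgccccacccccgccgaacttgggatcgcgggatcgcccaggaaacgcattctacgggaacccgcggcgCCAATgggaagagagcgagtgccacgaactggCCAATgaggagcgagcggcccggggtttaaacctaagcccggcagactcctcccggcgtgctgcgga
Cdc20 (chr4:118437344-118437593, minus strand): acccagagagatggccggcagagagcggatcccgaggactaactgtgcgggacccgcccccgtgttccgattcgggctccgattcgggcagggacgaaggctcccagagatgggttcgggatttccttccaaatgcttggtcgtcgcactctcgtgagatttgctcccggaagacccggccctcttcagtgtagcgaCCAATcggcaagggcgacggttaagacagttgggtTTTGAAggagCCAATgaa
Bub1 (chr2:127831860-127832109, minus strand): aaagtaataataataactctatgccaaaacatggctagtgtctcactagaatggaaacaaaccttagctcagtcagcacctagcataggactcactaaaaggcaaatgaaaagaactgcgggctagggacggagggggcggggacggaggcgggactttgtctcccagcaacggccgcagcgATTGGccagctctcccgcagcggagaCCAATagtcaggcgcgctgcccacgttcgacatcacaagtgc
Mki67 (chr7:135716380-135716629, minus strand): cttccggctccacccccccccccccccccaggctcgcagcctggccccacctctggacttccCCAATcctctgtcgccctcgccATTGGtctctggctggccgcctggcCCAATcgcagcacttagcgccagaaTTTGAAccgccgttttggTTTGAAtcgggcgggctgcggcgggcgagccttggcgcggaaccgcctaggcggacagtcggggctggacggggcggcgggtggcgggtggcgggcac
Rrm1 (chr7:102441445-102441694, plus strand): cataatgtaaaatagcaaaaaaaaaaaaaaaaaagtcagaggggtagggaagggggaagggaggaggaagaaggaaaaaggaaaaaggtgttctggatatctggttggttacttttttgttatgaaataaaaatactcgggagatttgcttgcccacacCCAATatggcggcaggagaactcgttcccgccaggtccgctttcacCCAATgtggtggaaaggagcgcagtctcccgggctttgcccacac
Mcm6 (chr1:128359706-128359955, minus strand): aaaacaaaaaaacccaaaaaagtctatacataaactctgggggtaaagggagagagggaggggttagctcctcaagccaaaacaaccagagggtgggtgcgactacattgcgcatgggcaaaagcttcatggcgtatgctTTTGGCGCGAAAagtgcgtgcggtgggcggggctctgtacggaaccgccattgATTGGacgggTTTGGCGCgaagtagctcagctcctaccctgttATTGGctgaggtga

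Such a stretch was found for 23 of the 30 members. The E2F motif occurred in 4 of 13 S phase members (Cdc6, Mcm5, Mcm6 and Mcm7) and in 1 of 10 mitotic members (Cdk1), against 1.91% of 27025 mouse promoters. The CHR occurred in 5 of 10 mitotic members (Ccnb2, Cdc20, Cdk1, Mki67 and Top2a) and in 1 of 13 S phase members (Mcm2), against 16.3% of all promoters. CCAAT occurred in 9 of 10 and 8 of 13, against 34.5% of all. These are matches of letters in one window and show neither binding nor its absence.

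No member passed the test. With limma over all genes and Benjamini-Hochberg adjustment, 0 of 29 members had an adjusted p under 0.05 (0% of all 31073 genes), and their adjusted p ranged from 0.144 to 0.83. At an unadjusted p under 0.05 there were 2 members with a higher signal in treated livers, Mki67 and Tyms, where 11.1% of all genes reached that level. There were 9 members with a lower signal, 31.0% of the 29, where 16.5% of all genes reached it. These 9 were Top2a, Ccna2, Ccnb1, Cdc20, Birc5, Bub1 and Plk1 of mitosis, and E2f1 and Mcm4 of S phase. In either direction the share was 37.9%, against 27.7% of all genes. No member reached a mean change of 1.5-fold, where 0.689% of all genes did so at that level of p. The 95% intervals of the means lay within a 1.5-fold change for 26 of the 29, the exceptions being Ccnb1, Cdc20 and Bub1, and within a 2-fold change for all 29. Because fewer cells in the cycle and less RNA per cell look alike in whole liver, a ratio does not tell them apart.

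One pair, replicate 2, stood apart from the rest. Over 31062 genes, the ratios of replicates 1, 3 and 4 correlated with each other at r = 0.601 to 0.785 (across genes, which are not independent replicates), and those of replicate 2 with them at -0.178 to 0.020. Over the 29 members the correlations were 0.844 to 0.923 among replicates 1, 3 and 4, and -0.014 to 0.173 with replicate 2. The members, the lists and the markers are therefore also described without replicate 2. Median spot intensities were 379.5 to 530 in Cy3 and 813 to 962 in Cy5, and the 4 arrays lay on 1 slide. The brightest probe of each of the 29 members was well above background in both channels on all 4 arrays. The lowest raw signals of a member were 104 in Cy3 (Ccne2) and 162 in Cy5 (Aurkb), against medians of 62 to 67 and 66 to 80 on the negative control spots.

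The mitotic members were mostly below 0, and the S phase members were mostly above it. Of the 14 mitotic members 12 had a mean below 0, with a median of -0.15, and of the 15 S phase members 11 had a mean above 0, with a median of 0.045. Of all genes tested 53.9% had a mean below 0, with a median of -0.015. The mitotic medians were -0.19, -0.0025, -0.21 and -0.16 on replicates 1 to 4. The S phase medians on the same arrays were 0.021, -0.080, 0.020 and 0.075. The S phase median exceeded the mitotic one by 0.21, 0.23 and 0.23 on replicates 1, 3 and 4, and lay 0.078 below it on replicate 2, so the order of the roles was not shared by all 4 pairs. Without loess the S phase median turned to -0.035, with Mcm5, Mcm6, Mcm7 and Tk1 below 0, and the mitotic median was -0.23. This is a description of the members, and no test was made of a value over a list.

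**Figure D1:**
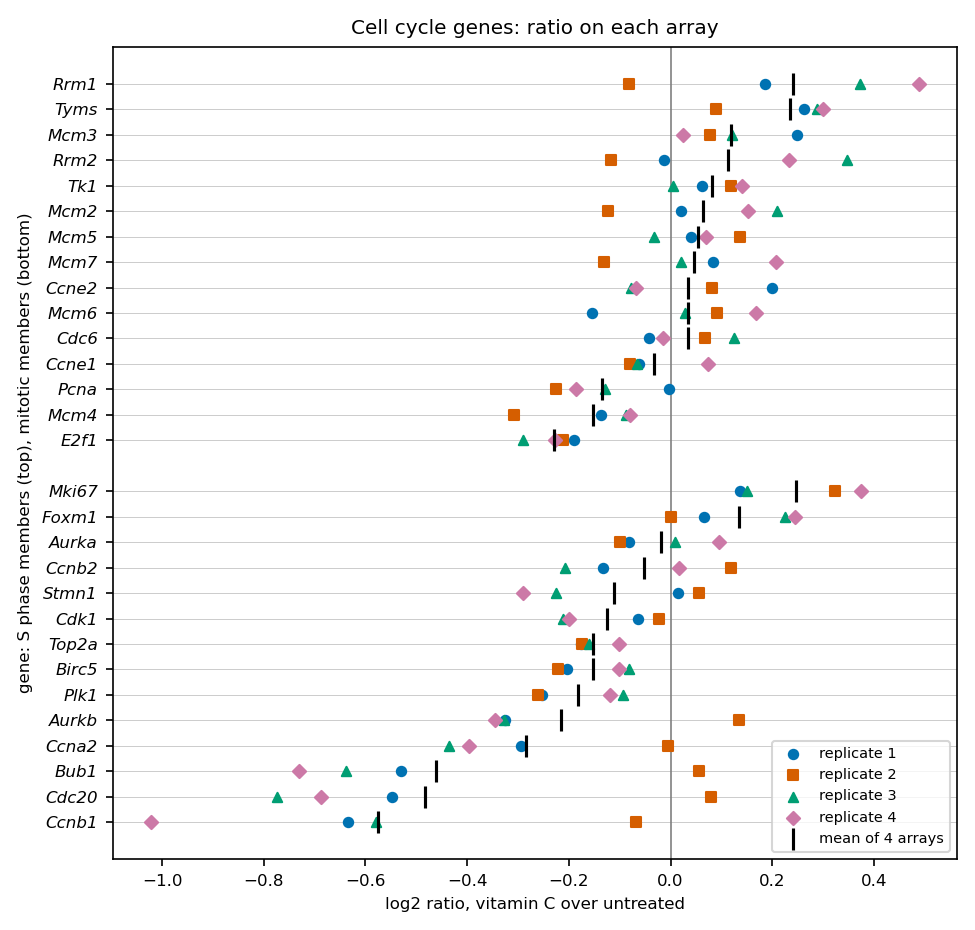
Log2 ratio of vitamin C over untreated (x axis) for the 15 S phase members (top) and the 14 mitotic members (bottom), with one symbol per array and a bar at the mean of 4 arrays. In the lowest rows (Bub1, Cdc20 and Ccnb1) replicates 1, 3 and 4 lie between -1.02 and -0.53, and replicate 2 between -0.068 and 0.080.

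Among the cyclins of mitosis, Ccnb1 had the lowest mean of all members. Ccnb1 encodes cyclin B1, the partner of Cdk1 at the entry into mitosis, and its ratios were -0.63, -0.068, -0.58 and -1.02 on replicates 1 to 4. By the brightest Ccnb1 probe, the treated liver was thus below its untreated partner in 3 pairs and close to it in replicate 2. Its mean was -0.58 ± 0.39 (SD, n = 4), a fold of 0.671 (95% interval 0.520 to 0.865) that did not pass (adjusted p = 0.144, limma). The raw Cy3 signals of the treated livers were 470, 1086, 627 and 559, with the highest in replicate 2. The raw Cy5 signals of the untreated livers were 1131, 2284, 2498 and 1977, with the lowest in replicate 1. Dimmer probes of Ccnb1 did not share the low ratio: one had a mean of 0.0034 ± 0.085 and the dimmest one -0.045 ± 0.26, the latter above background in Cy3 on 2 of 4 arrays only.

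Ccna2, which encodes cyclin A2 of S phase and early mitosis, had ratios of -0.29, -0.0052, -0.44 and -0.40. It was below 0 on all 4 arrays, with a mean of -0.28 ± 0.19 and a fold of 0.822 (adjusted p = 0.145, limma), although the value of replicate 2 was near 0. Ccnb2, which encodes cyclin B2, lay on both sides of 0 with -0.13, 0.12, -0.21 and 0.016. Cdk1, the kinase of mitotic entry, was at -0.064, -0.022, -0.21 and -0.20, with a mean of -0.12 ± 0.095 (adjusted p = 0.2, limma). Its dimmer probe had a mean of 0.044 ± 0.036, so the probes of Cdk1 differed in sign. The partners of one complex, Ccnb1 and Cdk1, thus differed in mean ratio by their brightest probes, a difference that was not tested.

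Cdc20, the activator of the ubiquitin ligase that ends mitosis, resembled Ccnb1. Its ratios were -0.55, 0.080, -0.77 and -0.69, below 0 on replicates 1, 3 and 4 and slightly above it on replicate 2. The mean was -0.48 ± 0.39, a fold of 0.716 (95% interval 0.557 to 0.920) that did not pass (adjusted p = 0.146, limma). Bub1, a kinase of the spindle checkpoint that restrains Cdc20, was likewise above 0 on replicate 2 alone, with -0.53, 0.056, -0.64 and -0.73. Its mean was -0.46 ± 0.35 and its fold 0.727 (adjusted p = 0.146, limma). The probe that gave these values was the brightest of the members, with a log2 intensity of 13.9, whereas another Bub1 probe had 7.08 and a mean of -0.12 ± 0.13. The probes carry different accessions of the gene, and levels of different probes cannot be set against each other.

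Aurkb, the kinase of the chromosomal passenger complex, had nearly equal ratios of -0.33, -0.33 and -0.34 on replicates 1, 3 and 4 and 0.13 on replicate 2. Its mean was -0.22 ± 0.23 (adjusted p = 0.199, limma). Its log2 intensity of 7.14 was the lowest of the members, and without loess its mean was 0.079. Birc5 (survivin), a further subunit of that complex, was at -0.20, -0.22, -0.083 and -0.10, below 0 in every pair. Its mean was -0.15 ± 0.070 (adjusted p = 0.151, limma). Plk1, a kinase of centrosomes and mitotic entry, was likewise below 0 in every pair, at -0.25, -0.26, -0.093 and -0.12, with a mean of -0.18 ± 0.087 (adjusted p = 0.145, limma). For Birc5 and Plk1 replicate 2 had the lowest value and not the highest. Aurka, the kinase of spindle poles, was at -0.081, -0.10, 0.0089 and 0.096, on both sides of 0.

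The remaining mitotic members did not share one direction. Top2a, the topoisomerase that untangles sister chromatids, was at -0.18, -0.17, -0.16 and -0.10, a narrow range below 0 (mean -0.15 ± 0.035, adjusted p = 0.145, limma). A dimmer Top2a probe had -0.19, 0.24, -0.37 and -0.21, above 0 on replicate 2, with a mean of -0.13 ± 0.26. Mki67, which encodes the proliferation antigen Ki-67, was above 0 on all 4 arrays, at 0.14, 0.32, 0.15 and 0.38. Its mean of 0.25 ± 0.12, a fold of 1.19, was the highest of all members (adjusted p = 0.144, limma), and a dimmer probe had 0.032 ± 0.18. Foxm1, a factor that activates mitotic genes, was also above 0 throughout, at 0.066, 0.00028, 0.23 and 0.24 (mean 0.13 ± 0.12, adjusted p = 0.208, limma). Stmn1, which destabilises microtubules, was at 0.015, 0.056, -0.22 and -0.29. Mki67 and Cdc20 both carry the CHR and CCAAT in the stretches shown above, and their mean ratios lay on opposite sides of 0. A relation of these motifs to the ratios was not tested.

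Among the S phase members, the enzymes that supply deoxynucleotides were all above 0 in their means, except that Tk1 turned to -0.035 without loess. Tyms, thymidylate synthase, had 0.26, 0.089, 0.29 and 0.30, above 0 in every pair and lowest in replicate 2. Its mean was 0.23 ± 0.098, a fold of 1.18 (95% interval 1.07 to 1.29) that did not pass (adjusted p = 0.144, limma). Tyms was the member whose probes were closest: the other one had 0.25 ± 0.11. Rrm1, the large subunit of ribonucleotide reductase, was at 0.19, -0.081, 0.37 and 0.49, with replicate 2 alone below 0 (mean 0.24 ± 0.25, adjusted p = 0.185, limma). Its small subunit Rrm2 was at -0.012, -0.12, 0.35 and 0.23, and Tk1, thymidine kinase, at 0.063, 0.12, 0.0057 and 0.14. These 4 genes had array medians of 0.12, 0.0039, 0.32 and 0.27.

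The helicase subunits Mcm2 to Mcm7, which unwind DNA at the fork as one ring, stayed close to 0. Mcm4 was the only one with a mean below 0: its ratios were -0.14, -0.31, -0.087 and -0.080, with the lowest value in replicate 2 (mean -0.15 ± 0.11, adjusted p = 0.167, limma). Mcm3 was above 0 in every pair, at 0.25, 0.078, 0.12 and 0.025 (mean 0.12 ± 0.096, adjusted p = 0.214, limma). Mcm2, Mcm5, Mcm6 and Mcm7 had means of 0.034 to 0.065, each smaller than its SD of 0.071 to 0.15, and each had 1 array below 0. Mcm5, Mcm6 and Mcm7 were below 0 without loess, at -0.083 to -0.105. The subunits of this ring therefore showed no shared direction.

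E2f1, the factor that activates S phase genes, was the lowest S phase member. Its ratios of -0.19, -0.21, -0.29 and -0.23 lay in a narrow range below 0, with a mean of -0.23 ± 0.043 and a fold of 0.853 (adjusted p = 0.144, limma). Another E2f1 probe, printed in 10 spots on each array, had array means of -0.021, 0.10, -0.10 and -0.057 and an overall mean of -0.020 ± 0.087. Its 10 spots differed by an SD of 0.044 to 0.11 within an array, so the probes of E2f1 disagreed on all arrays by more than that spread. Pcna, the sliding clamp of DNA polymerases, was also measured in 10 spots and had ratios of -0.0032, -0.23, -0.13 and -0.19. The SD of its spots within an array was 0.045 to 0.10, and the SD of the array means was 0.097. Its mean of -0.14 did not pass (adjusted p = 0.181, limma). On replicate 2, 8 of the 10 Pcna spots were used because the others were marked as outliers.

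Cyclin E and the licensing factor Cdc6 stayed near 0 by their brightest probes. Ccne1 was at -0.062, -0.080, -0.066 and 0.075, and Ccne2 at 0.20, 0.081, -0.078 and -0.067. Cdc6, which loads the helicase onto origins, was at -0.043, 0.067, 0.13 and -0.015 with a mean of 0.033 ± 0.077. A dimmer Cdc6 probe had ratios of -0.42, 0.27, -0.63 and -0.84 and a mean of -0.41 ± 0.48. Which of the Cdc6 probes reports the transcript was not tested.

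**Figure D2:**
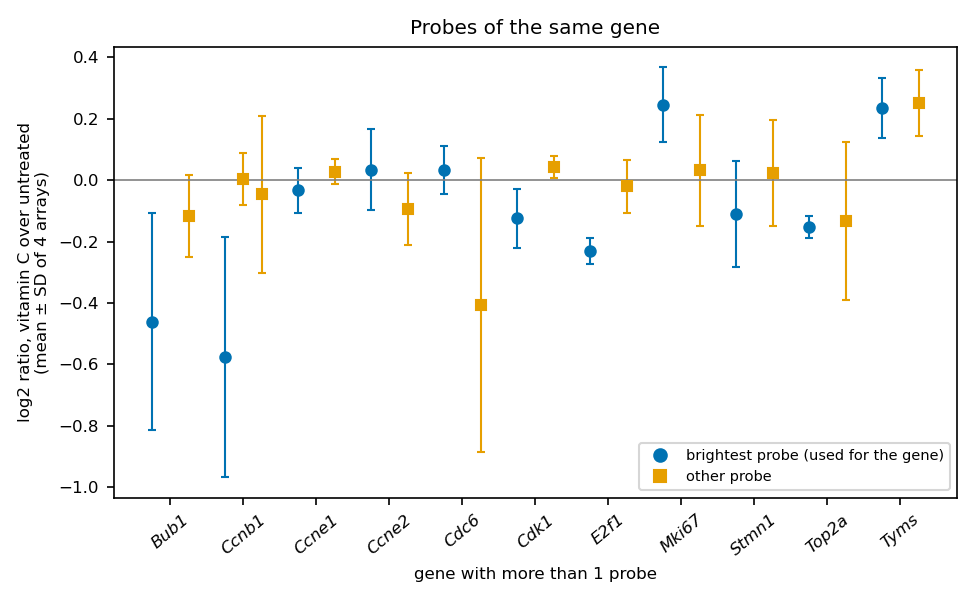
Mean log2 ratio of vitamin C over untreated (y axis, bars are the SD of 4 arrays) for every probe of the 11 members with more than 1 probe, with the brightest probe in blue circles. The probes of Tyms (0.23 and 0.25) nearly coincide, whereas those of Ccnb1 (-0.58, 0.0034 and -0.045) and Cdc6 (0.033 and -0.41) lie apart.

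Of the 11 members with more than 1 probe, all probes had a mean of the same sign in 5 (Bub1, E2f1, Mki67, Top2a and Tyms). They differed in sign in 6 (Ccnb1, Ccne1, Ccne2, Cdc6, Cdk1 and Stmn1). The other 18 members rest on a single probe. When all kept probes of a gene were averaged, Ccnb1 had a mean of -0.21, and 0 members and 0% of all genes passed.

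Without replicate 2, 8 of the 29 members passed (adjusted p under 0.05, limma), and so did 28.2% of all genes. The members' share was thus close to that of all genes. Replicate 2 was left out because its ratios differed from the others, so a smaller spread and smaller p are built into this fit. Leaving out replicate 1, 3 or 4 gave 0 passing genes. The passes without replicate 2 are therefore a description only. The 6 lower ones were Ccnb1 (mean -0.74 ± 0.24), Cdc20 (-0.67 ± 0.11), Bub1 (-0.63 ± 0.10), Ccna2 (-0.38 ± 0.073), Aurkb (-0.33 ± 0.010) and E2f1 (-0.24 ± 0.050), all n = 3. In this direction 18.1% of all genes passed. The 2 higher ones were Rrm1 (0.35 ± 0.15) and Tyms (0.28 ± 0.019), where 10.1% of all genes passed. Mki67 had 0.22 ± 0.13 and did not pass (adjusted p = 0.0605, limma). The medians were then -0.16 for the mitotic and 0.025 for the S phase members.

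**Figure D3:**
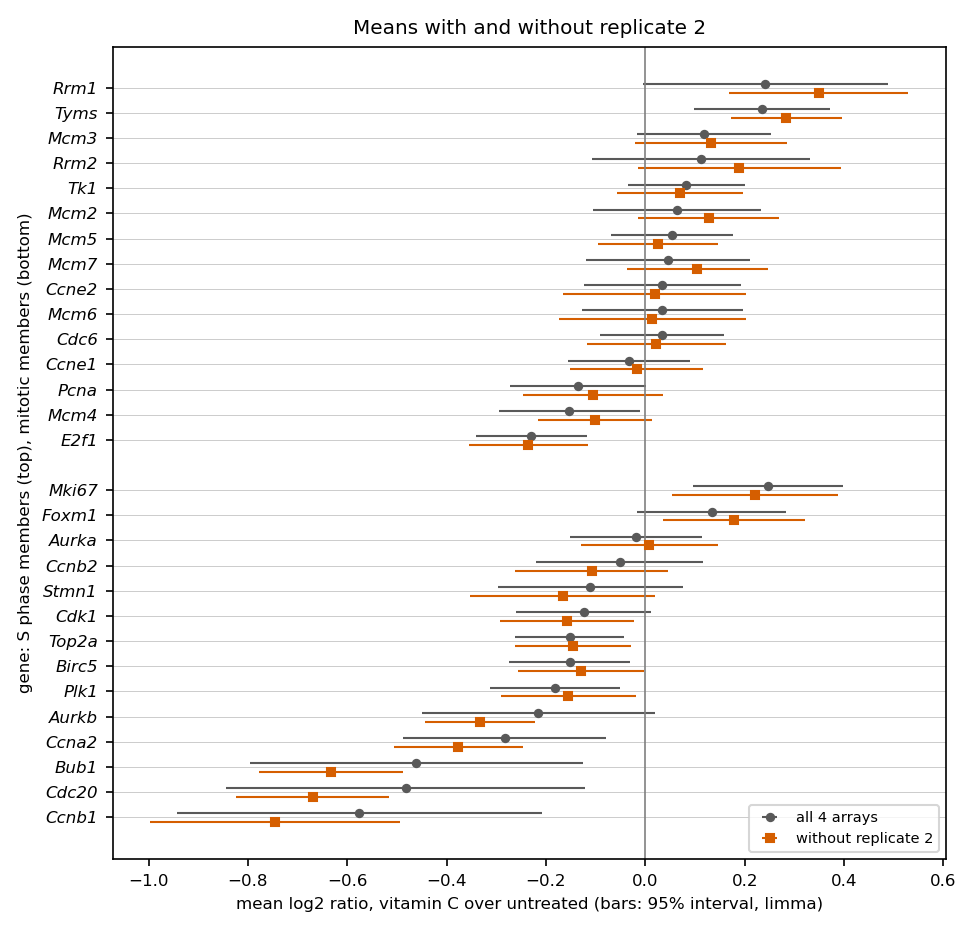
Mean log2 ratio of vitamin C over untreated (x axis) with its 95% interval from limma for each of the 29 members, from all 4 arrays (grey circles) and without replicate 2 (orange squares). Ccnb1, Cdc20, Bub1 and Aurkb move further below 0 without replicate 2 and their intervals narrow, while E2f1 stays at -0.23 and -0.24.

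The sign of the ratio was the same on all 4 arrays for 14 members (48.3%), against 30.9% of all genes. It was above 0 for 5 of them (14.9% of all genes), Mki67, Foxm1, Tyms, Tk1 and Mcm3, and below 0 for 9 (16.1% of all genes). The latter were Ccna2, Ccnb1, Cdk1, Top2a, Birc5, Plk1, E2f1, Mcm4 and Pcna. Bub1, Cdc20 and Aurkb were below 0 on replicates 1, 3 and 4 and above it on replicate 2, and Mcm2, Mcm7 and Rrm1 showed the reverse. Of all genes 34.7% were below 0 on replicates 1, 3 and 4, but only 16.1% on all 4 arrays. For values above 0 these shares were 28.7% and 14.9%, so neither pattern is particular to the members. Without replicate 2 the sign was the same on the other 3 arrays for 8 members above 0 (28.7% of all genes) and 12 below it (34.7% of all genes). A probe's dye effect would also give the same sign on every array.

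The members' counts depended on the processing. With arrays centred on their median in place of loess, 10 members and 31.0% of all genes passed. By direction these were 9 members lower, where 17.0% of all genes passed, and 1 higher (Ccne2), where 14.0% did. In a fit of the separate channels with the array as a block, 1 member passed, Tyms, and 3.16% of all genes. Without that block 5 members had an unadjusted p under 0.05, against 14.2% of all genes, and with Agilent's processed signals 7 members did, against 20.8%. Leaving out replicate 1 gave 5 such members (12.6% of all genes), and leaving out replicate 2 gave 14 (43.7%).

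**Figure D4:**
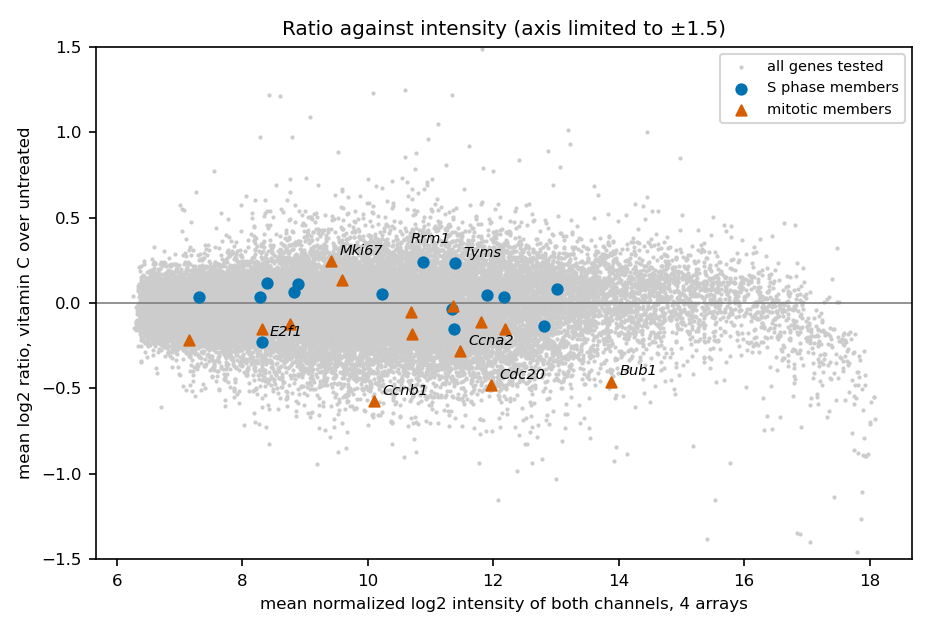
Mean log2 ratio of vitamin C over untreated (y axis, limited to 1.5 on either side of 0, which leaves out 9 genes) against mean normalized log2 intensity (x axis) for all 31073 genes (grey), S phase members (blue circles) and mitotic members (orange triangles). The members span intensities of 7.14 to 13.9, the cloud of all genes bends downwards only among genes brighter than these, and Ccnb1, Cdc20 and Bub1 lie near the lower edge of the cloud.

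Other genes of the same pathways were described from lists chosen by role, and none of their members passed over all genes. At the replication fork, which holds the DNA polymerases, the clamp loader and the enzymes that join fragments, 20 of 21 genes had a mean above 0, as 46.1% of all genes had. The median of this list was 0.093, with 0.12, -0.00074, 0.11 and 0.16 on replicates 1 to 4, and 8 genes were higher and 0 lower at an unadjusted p under 0.05. Over all genes these shares were 11.1% and 16.5%. Pold3, a subunit of DNA polymerase delta, had 0.42, 0.26, 0.61 and 0.56 (mean 0.46 ± 0.16, adjusted p = 0.144, limma). Rfc2, a subunit of the clamp loader, had 0.34, 0.31, 0.48 and 0.35 (mean 0.37 ± 0.075, adjusted p = 0.144, limma). Both were above 0 in all 4 pairs, replicate 2 included. Pole2, of DNA polymerase epsilon, was the exception with a mean of -0.19 ± 0.18.

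Genes that recognise and fire origins had a median of 0.025, with 4 of 15 higher and 0 lower at an unadjusted p under 0.05 (11.1% and 16.5% of all genes). Orc5 (0.36 ± 0.24) and Orc3 (0.23 ± 0.14), of the origin recognition complex, had the smallest p of that list, and Cdc45 and Gins2, of the active helicase, had means of 0.0010 and -0.00098. Genes of the spindle, kinetochore and cytokinesis, 26 in number, had a median of -0.021, with 1 higher and 5 lower at that level (11.1% and 16.5% of all genes). The phosphatase gene Cdc25b, which activates Cdk1, was at -0.17 ± 0.035, and Kif2c, a kinesin that depolymerises microtubules, at 0.18 ± 0.070. Kif2c was dim, with a log2 intensity of 6.65, below that of every member. The low mitotic median of the members (-0.15) was thus not seen at that size in this longer list of mitotic genes. The difference between these lists was not tested.

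**Figure D5:**
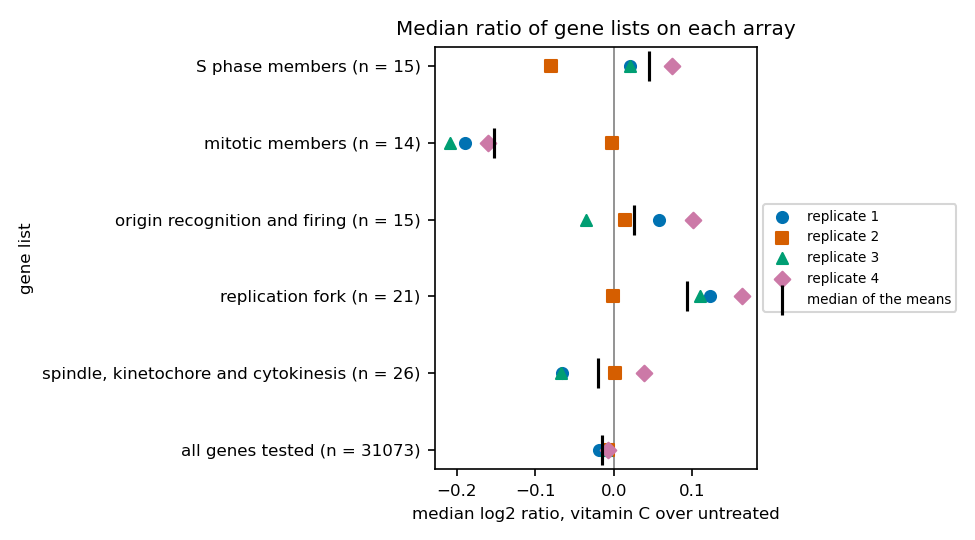
Median log2 ratio of vitamin C over untreated (x axis) of 6 groups of genes on each of the 4 arrays, with a bar at the median of the gene means. The mitotic members lie at -0.21 to -0.16 on replicates 1, 3 and 4 and at -0.0025 on replicate 2, and the replication fork genes at 0.11 to 0.16 and -0.00074 on the same arrays.

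Regulators of the cycle lay on both sides of 0. Of 7 inhibitors of cyclin-dependent kinases, 2 were higher and 1 lower at an unadjusted p under 0.05 (11.1% and 16.5% of all genes, here and for the lists that follow). Cdkn2d (p19) had 0.29 ± 0.12 and Cdkn2c (p18) had -0.25 ± 0.15, each with one sign on all 4 arrays, and Cdkn1a (p21), a target of p53, had -0.051 ± 0.13. Of 8 measured G1 cyclins and kinases, 1 was higher and 0 were lower: Cdk4, the partner of cyclin D, had 0.28 ± 0.19, and Ccnh, of the kinase that activates the others, had -0.16 ± 0.14. Of 17 genes of the Rb, E2F and DREAM complexes, which include both silencers and activators of cell cycle genes, 4 were higher and 3 lower. E2f3 was below 0 on all 4 arrays (-0.36 ± 0.16), like E2f1, and Lin52, a subunit of DREAM, was above it (0.29 ± 0.079). The replication checkpoint had 2 of 9 higher and 1 lower, with Chek2 at 0.23 ± 0.15 and Timeless at -0.20 ± 0.13. Chek2 was dim, with a log2 intensity of 7.14. Wrn itself had a mean of -0.0016 ± 0.054. The adjusted p of these genes was 0.144 or more (limma).

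Without replicate 2 the replication fork list had a median of 0.11, and 7 of its 21 genes passed higher and 1, Pole2, lower (limma, adjusted p under 0.05, against 10.1% and 18.1% of all genes). Pold3 then had 0.53 ± 0.097 (adjusted p = 0.00975, limma) and Rfc2 0.39 ± 0.077 (adjusted p = 0.0104, limma). By the same test 3 of 15 origin genes passed higher and 0 lower (median 0.026), and 1 of 26 spindle, kinetochore and cytokinesis genes higher and 5 lower (median -0.018). The 7 kinase inhibitors had 2 higher and 1 lower, and their median turned from -0.0049 to 0.073. The G1 list had 2 higher and 0 lower (median 0.042), the Rb, E2F and DREAM list 4 higher and 1 lower (median 0.080), and the replication checkpoint 1 higher and 1 lower (median 0.062). E2f3 passed lower at -0.44 ± 0.049 (adjusted p = 0.00975, limma). As for the members, leaving out the deviating array builds in smaller p, so the passes of these lists are a description only.

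Resident and passing blood cells can also divide in the liver, so their markers were read on the same arrays. Hepatocyte markers (6 of 8 measured) had array medians of -0.0036, -0.23, -0.12 and -0.14. Their summed normalized levels were 586400 to 800700 in treated and 797800 to 1012000 in untreated livers. The sums rest mostly on very bright probes such as Alb (log2 intensity 18.0, mean -0.70), where the cloud of all genes bends downwards. Alb, Apoa1, Tat and Cyp2e1 had means below 0, and Ttr (0.11) and Hnf4a (0.077) above it. Markers of Kupffer cells and macrophages (6 of 7 measured) had array medians of -0.36, 0.24, 0.048 and 0.40, and sums of 52380 to 100300 and 48920 to 70320. T and NK cell markers (6 of 6) had medians of -0.023, 0.041, 0.031 and 0.073, with sums of 12990 to 16550 in treated and 13210 to 20230 in untreated livers. Single markers of this list, chosen here after their values were seen, lay apart. Cd3e (-0.36, 0.081, -0.33 and -0.37) and Cd8a (-0.18, 0.0012, -0.28 and -0.32) were below 0 on replicates 1, 3 and 4 and above it on replicate 2, as Cdc20, Bub1 and Aurkb were. Nkg7 was above 0 on all 4 arrays, with a mean of 0.60 ± 0.40, and Cd3g and Cd4 were above 0 on replicates 1, 3 and 4 and below it on replicate 2. The pattern of Cd3e and Cd8a was not particular to T cell markers. The macrophage marker Csf1r (-0.38, 0.13, -0.26 and -0.078) and the fibroblast marker Col1a1 (-0.37, 0.17, -0.39 and -0.33) had it too. B cell markers (4 of 4) had 0.056, -0.084, 0.20 and 0.25, with sums of 3267 to 4753 and 2986 to 3363. Erythroid markers (5 of 5) had 0.073, 0.043, -0.043 and 0.062, with sums of 24890 to 31950 and 27470 to 30240. Endothelial markers (5 of 5) had sums of 15890 to 24560 and 18460 to 19610, stellate cell and fibroblast markers (5 of 5) 12290 to 17810 and 13570 to 18290, and cholangiocyte markers (4 of 4) 1223 to 1951 and 1205 to 1996. A marker counted as measured only if well above background on 3 of 4 arrays, so none could lie at background throughout. Without replicate 2 the list medians of the means were -0.22 for hepatocyte, 0.025 for Kupffer cell, 0.035 for T and NK cell, 0.16 for B cell and 0.029 for erythroid markers. The sums of T and NK cell markers, which rest mostly on Cd3e (log2 intensity 13.6), were then 12990 to 16550 in treated and 15480 to 20230 in untreated livers. Those of B cell markers were 3351 to 4753 and 2986 to 3212, and those of endothelial markers 19410 to 24560 and 18750 to 19610. Treated and untreated ranges overlapped for every list except the B cell markers, which were higher in treated livers. The part of these cells in the ratios of the members was not tested.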

How the data were processed

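The members and gene lists were chosen with earlier results of these data known. Per the file headers, the authors used Agilent Feature Extraction 10.5.1.1 to obtain the spot intensity values they deposited. The log10 ratio of Cy5 over Cy3 deposited in the same files was not used. They also deposited a table of log2 values; limma is the tool that the submitters' processing notes give, with no version. Over 41174 probes its columns had r = 0.950 to 0.980 with log2 Cy5 over Cy3 and medians of 0.0014 to 0.0050. The table is therefore centred close to 0 and has the opposite direction, untreated over treated, but its scale (slopes of 1.10 to 1.18) is not known exactly.

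Median signals were corrected with normexp (offset 50) and normalized by loess within each array, with control spots at weight 0, in limma 3.58.1, statmod 1.5.0 and R 4.3.3; figures were drawn with Python 3.11.15. The files hold median, not mean, signals. Outlier spots (98 to 148 per array) were left out and spots of a probe averaged. Of 41174 probes, 25097 (61.0%) had an accession with 1 symbol in RefSeq's GRCm38.p6 gene table. A gene is its probe of highest mean intensity, kept if 3 of 4 arrays had it well above background in 1 channel or both. The 4 ratios were tested against 0 (lmFit, eBayes), and a gene passed at a p under 0.05 after Benjamini-Hochberg adjustment across the whole table. Each ratio already pairs a treated with an untreated liver. Slide and scan were shared by all arrays. All 30 members are named, and the 2 genes of smallest p in each list of other genes; further genes were picked after their values were seen. On simulated data with 200 of 31073 genes changed, 78.0% of those changed by 1.5 times were recovered. Of those changed by 2 times or more 100% were recovered, with 3.57% false calls. The simulated noise was independent for each gene and array, without a deviating array like replicate 2 or a dye effect of single probes. These shares therefore do not give the power of the test on the present arrays. The spread between 4 arrays limits the precision.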

Additional observations from a re-analysis of the deposited data

Results flagged for a closer look

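Of 32 values examined over the 4 arrays, 2 had an array far from the others; chance gives about 1 in 20. For Aurkb, replicate 2 (0.13) lay above the other arrays by 0.960 of the whole range. For Ccne1, replicate 4 (0.075) lay above the others by 0.883 of the range, at a range of ratios close to 0.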

How the results depend on the processing

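Each of the 29 members was recomputed under 16 alternatives, and 20 kept the sign of their mean in all of them. The sign turned in at least 1 alternative for Aurka, Aurkb, Ccnb2, Ccne2, Cdc6, Mcm5, Mcm6, Mcm7 and Tk1, and 26 of 464 values moved by 1 SD or more. Settings that changed only the filter on dim probes, the variance model or the fit of the channels left the members' means as they were. They could not turn a sign, so these counts overstate how stable the means are. The median of the S phase members exceeded that of the mitotic members in every alternative, by 0.18 to 0.22. In the settings that left the means as they were, this order was fixed in advance. Every alternative also combined several arrays, whereas on replicate 2 alone the S phase median lay 0.078 below the mitotic one.

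The counts depended on the setting. With arrays centred on the median without loess, 9628 genes (31.0%) and 10 members (1 higher and 9 lower) passed, 14643 genes had an unadjusted p under 0.05, and the medians were -0.12 for all members and -0.035 for the S phase members. Fitting the channels separately, paired by a replicate block, 981 genes (3.16%) and 1 member, Tyms, passed. Without the replicate block 0 genes passed, and 4415 genes and 5 members had an unadjusted p under 0.05. With Agilent's processed signals 7 members had such a p. The cause of these differences was not tested. With 1 array left out, the genes past the threshold ranged from 0 to 8764 and the members from 0 to 8, the upper values being those without replicate 2. At an unadjusted p under 0.05 the ranges were 3119 to 13567 genes, where all 4 arrays gave 8600, and 5 to 14 members. The median of the members then ran from -0.057 to -0.018. Dim members such as Aurkb and Ccne2 are limited by their signal over background.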
